A study of Gallus gallus with 6 samples.

Results

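SOX7, SOX17 and SOX18, the SoxF genes, were followed in cells that carried the hemangioblast reporter Hb-eGFP and in control cells of the same chick embryos. They were read by every probe set that the array annotation gives to exactly 1 gene and whose current RefSeq symbol is SOX7, SOX17 or SOX18, which found 3 of the 13009 genes named on the array by 5 of its 38439 probe sets. SOX7 and SOX17 had 2 probe sets each and SOX18 had 1. The arrays compared 3 samples of eGFP+ cells, called Hb-eGFP+, with 3 samples of eGFP-/RFP+ cells, called RFP+ control. All of the embryos (Gallus gallus) were electroporated at HH3 with both Hb-eGFP and the ubiquitous pCAGGS-RFP, were collected at HH5-6, pooled and sorted by FACS into both populations at the same time, the control cells showing red but no green fluorescence. In Hb-eGFP, a fragment of the regulatory region of the chick Cerberus gene and the minimal promoter of human beta-globin drive eGFP, and the reporter marks only those cells that were electroporated. The sources used here do not say which samples came from which pool, and p-values measure the spread between these samples.

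SoxF proteins are transcription factors that bind DNA through an HMG box and carry an activation domain in their C-terminal part. In the mouse, SOX7, SOX17 and SOX18 act in the formation of blood vessels, SOX18 also at the start of lymphatic development, and SOX7 is expressed early in the mesoderm that gives rise to blood and endothelium. SOX17 is in addition a regulator of definitive endoderm in vertebrates. Members of the family can therefore be found in different tissues of the gastrula, and the arrays measure each of them in both sorted populations.

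SOX7 and SOX18 were higher and SOX17 was lower in the Hb-eGFP+ cells, set against RFP+ control cells. By the probe sets that represent them, the ratio of the group means was 4.73 for SOX7 and 3.01 for SOX18, whereas SOX17 was 1.95-fold higher in the control cells. Of the 5 probe sets, 2 were called higher and 2 lower by limma at an adjusted p under 0.05, against backgrounds of 4.02% and 5.05% of all probe sets, and 1 (a dim one of SOX7) was not called. All of these genes had been listed by the study from the same samples, so their direction is not independent evidence. In sorted populations, fewer cells of a type and less RNA per cell cannot be told apart.

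The arrays were close to each other in overall brightness, with a median intensity of 87.7 to 91.1. The GFP probe set, for the reporter by which the cells were sorted, read 17083 ± 229 in Hb-eGFP+ cells and 926 ± 80.5 in control cells (SD, n = 3 each). The values are dChip expression indices, 1 per probe set, on a linear intensity scale. As a guide to the dim end of that scale, the 56 other reporter probe sets on the array had a median of 34.5 to 37.8 (Hb-eGFP+) and 31.9 to 35.2 (control) per array, and a 95th percentile of 124 to 144 (Hb-eGFP+) and 99.5 to 116 (control). The brightest of them read 11757 to 12679 (Hb-eGFP+) and 5439.8 to 6405.5 (control), so not all are without signal. Their 95th percentile was above the median of every array, so most probe sets of the array lie below it. The GFP signal of the control arrays, 836 to 992, lay above it, so a GFP signal was present in the control cells too. Some of the genes that mark endothelium and blood were higher in Hb-eGFP+ cells, among them CDH5 and TAL1. The endothelial markers PECAM1 (69.4 against 62.8) and VWF (62.9 against 72.4) were dim in both populations and not called.

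**Figure D1:**
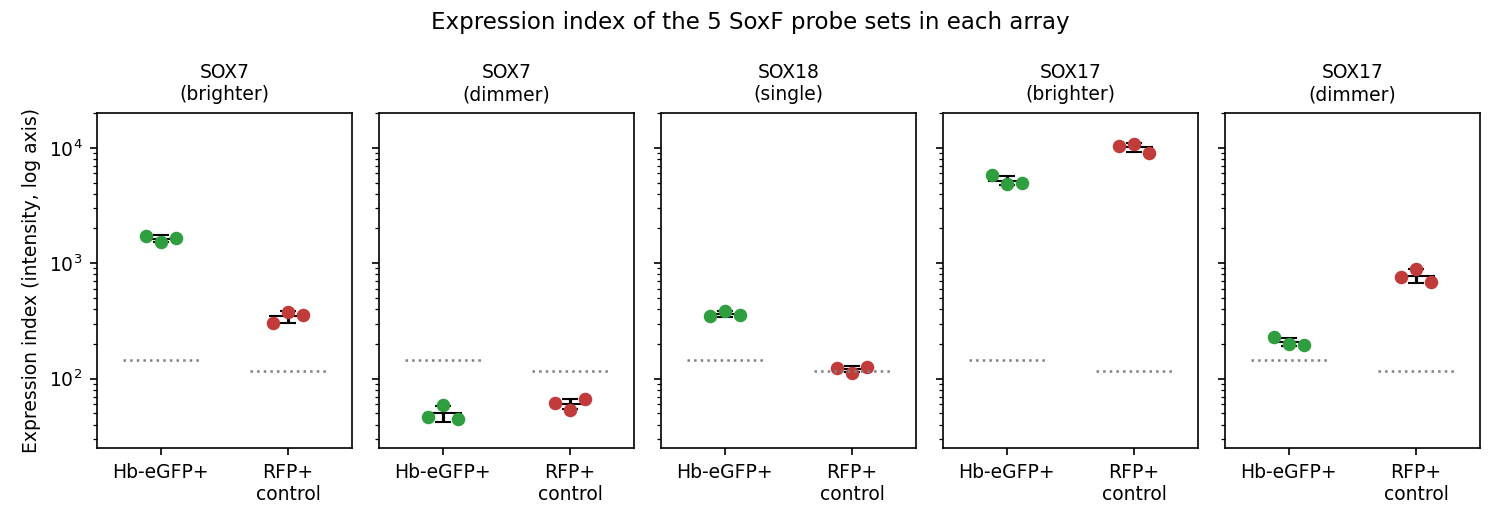
Expression index (linear intensity, log axis) of each SoxF probe set in the 3 Hb-eGFP+ arrays (green) and the 3 RFP+ control arrays (red). Black bars give the mean and SD, and dotted lines the highest 95th percentile of the 56 other reporter probe sets in each group. The groups stand apart in 4 of the 5 panels and overlap for the dimmer SOX7 probe set. Of all probe sets, 16% stand apart with Hb-eGFP+ higher and 14.1% with Hb-eGFP+ lower.

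SOX7, a transcription factor of early endothelium, had the largest change of the family. Its brighter probe set read 1736, 1524 and 1649 in the Hb-eGFP+ arrays, against 301, 381 and 357 in the control arrays. The lowest Hb-eGFP+ array thus lay far above the highest control array, and the means were 1637 ± 107 and 346 ± 41.3 (SD, n = 3 each). On the log2 scale the difference was 2.25 (standard error 0.11, 95% interval 1.99 to 2.50, adjusted p = 4.1e-05 from limma). By this probe set, SOX7 ranked 2 from the top among the 13009 genes ordered by log2 fold change. The lower 90% bound of its ratio was 4.17, above the 1.7 that the methods set as a minimum, a bound that 0.718% of all probe sets passed in this direction.

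The dimmer SOX7 probe set gave a different reading. It stood at 46.7, 59.4 and 44.3 in Hb-eGFP+ cells, against 62.0, 53.8 and 66.6 in control cells, so that the groups overlapped. These values lie below the 95th percentile of the other reporter probe sets in every array. Its log2 fold change was -0.28 (95% interval -0.60 to 0.03, adjusted p = 0.26 from limma). At this signal it gives little information on the size of a change. The sources used here do not say which part of the SOX7 transcript each probe set reads, and the SOX7 call rests on 1 of its 2 probe sets.

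SOX18, a regulator of endothelial and lymphatic differentiation in the mouse, was measured by a single probe set. Its intensities were 349, 388 and 357 in Hb-eGFP+ cells, against 125, 113 and 126 in control cells. All of the Hb-eGFP+ arrays were above all of the control arrays, as were 16% of all probe sets, and the spread within each group was small, with means of 364 ± 20.6 and 121 ± 7.45 (SD, n = 3 each). The log2 fold change was 1.59 (standard error 0.09, 95% interval 1.39 to 1.79, adjusted p = 6.4e-05 from limma), and the lower bound of the ratio was 2.78. SOX18 ranked 33 from the top by log2 fold change among the 13009 genes. Its control signal was little above the 95th percentile of the other reporter probe sets, and the log2 fold change was 1.28 when 50 was added to each intensity, so the size of the fold is less certain than its direction.

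SOX17, the endoderm regulator of the family, went the other way by both of its probe sets. The brighter one read 5757, 4880 and 4960 in Hb-eGFP+ cells, against 10418, 10870 and 9083 in control cells, and its mean log2 intensity exceeded that of 99.5% of all probe sets. Taken over all 6 arrays, SOX17 was thus among the brightest signals. It read 5199 ± 485 in Hb-eGFP+ cells, still far above the median of those arrays, against 10124 ± 929 in control cells (SD, n = 3 each). The log2 fold change was -0.96 (standard error 0.11, 95% interval -1.21 to -0.71, adjusted p = 0.0015 from limma). Its inverse ratio had a lower bound of 1.72, just past the minimum of 1.7, which 1.3% of all probe sets passed in this direction. That bound did not pass with Hb-eGFP+ replicate 2 left out (1.63), Hb-eGFP+ replicate 3 (1.63), RFP+ control replicate 1 (1.60) or RFP+ control replicate 2 (1.62), nor with a 95% interval (1.68), whereas the limma call held without any 1 of the 6 arrays (adjusted p of 0.0033 to 0.011).

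By the dimmer SOX17 probe set, the decrease was larger. It stood at 228, 198 and 197 in Hb-eGFP+ cells, against 758, 896 and 692 in control cells, with no overlap between the groups, as for 14.1% of all probe sets in this direction. The means were 208 ± 17.7 and 782 ± 104 (SD, n = 3 each), an inverse ratio of 3.76 with a lower bound of 3.22, and the log2 fold change was -1.91 (standard error 0.12, 95% interval -2.18 to -1.63, adjusted p = 0.00010 from limma). Both probe sets agree on the direction but not on the size. The log2 distance between them was 4.62 to 4.66 in Hb-eGFP+ cells and 3.60 to 3.78 in control cells, a difference of 0.94 ± 0.05 (SE; exact permutation p = 0.1, the smallest possible). The SOX17 fold is therefore given as a range over its probe sets, 1.95 to 3.76 times higher in control cells.

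**Figure D2:**
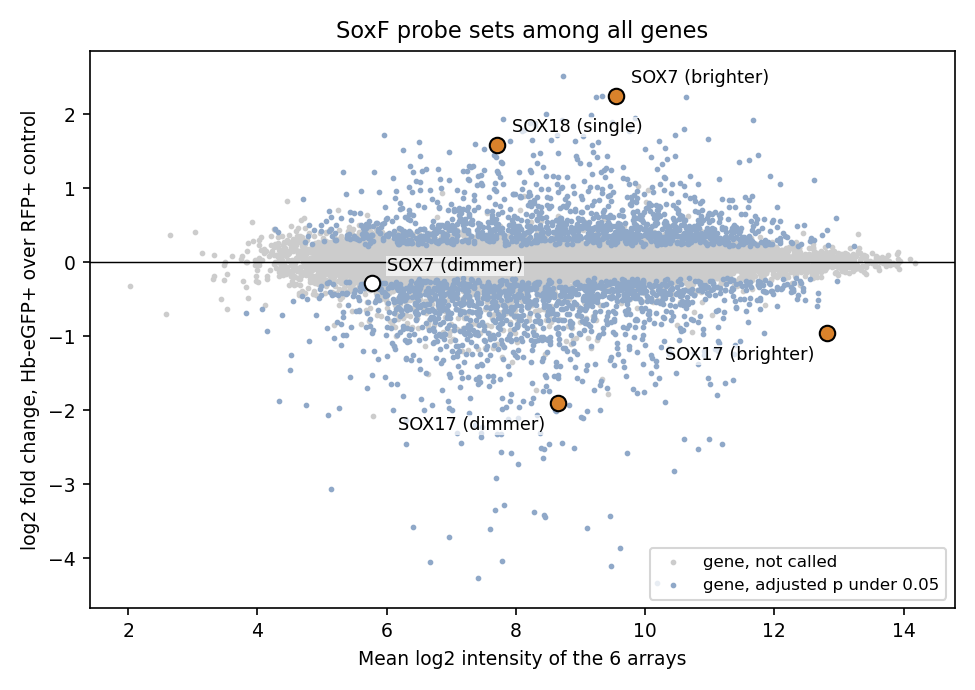
Log2 fold change (Hb-eGFP+ over RFP+ control) against the mean log2 intensity of the 6 arrays for 13009 genes, each by its brightest probe set, with the 5 SoxF probe sets as large circles (filled where called). SOX7 (brighter) and SOX18 lie near the top edge at 2.25 and 1.59, SOX17 below 0 at -0.96 and -1.91, and the dimmer SOX7 probe set among the dim signals.

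To ask whether the members changed by different amounts, the log2 distance between 2 probe sets was taken within each array and compared between the groups. This removes a constant difference in probe brightness, but not a difference in how probe sets respond to a change. In all, 5 pairs were compared, of which the pair of SOX7 probe sets is not described because the dimmer one was near the level of the other reporters, and each gave an exact two-sided permutation p of 0.1, the smallest that 3 arrays against 3 allow (0.1 also after Benjamini-Hochberg adjustment). Against SOX17, the log2 fold change of SOX7 was higher by 3.21 ± 0.14 (SE) and that of SOX18 by 2.55 ± 0.17, both taken on the brighter probe sets. Between the members that rose, SOX7 exceeded SOX18 by 0.66 ± 0.17 on the log2 scale. Their distance was 1.98 to 2.32 in Hb-eGFP+ cells and 1.27 to 1.76 in control cells, so that the ranges did not overlap, although the p rose to 0.2 at most when single arrays were left out. The 2 probe sets of SOX17 differed by more, 0.94, so the 0.66 cannot be told apart from a difference between probe sets.

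**Figure D3:**
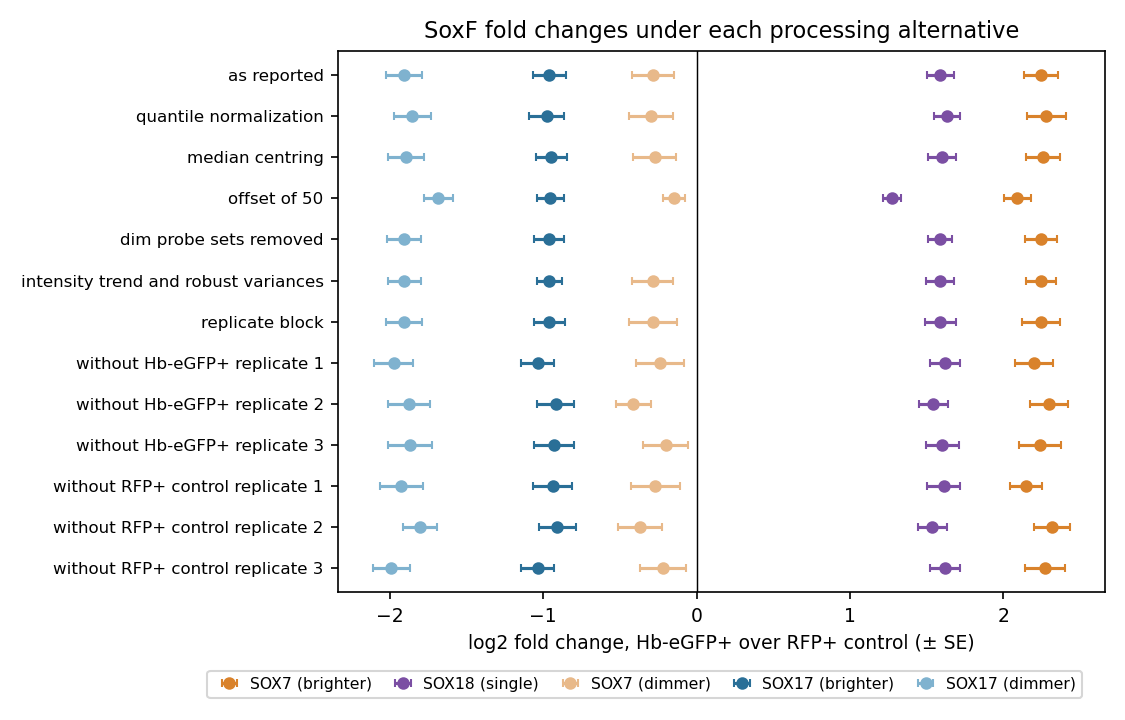
Log2 fold change (Hb-eGFP+ over RFP+ control, with its standard error) of each SoxF probe set as reported and under 12 processing alternatives; the dimmer SOX7 probe set has no value where dim probe sets were removed. SOX7 (brighter) stayed between 2.09 and 2.32, SOX18 between 1.28 and 1.64, and SOX17 below 0 by both probe sets.

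The rest of the SOX family did not share a direction. Of 16 other SOX genes looked for, 13 had a probe set, of which 1 was higher, 4 were lower and 8 were not called (median log2 fold change 0.0023, beside 0.012 over all 13009 genes, of which 9.22% were called higher and 10.7% lower). SOX8, of the SoxE group that acts in neural crest, was the one that rose, to 185 ± 19.1 in Hb-eGFP+ cells against 85.5 ± 5.05 in control cells (log2 fold change 1.11, adjusted p = 0.00018), the control signal lying below the 95th percentile of the other reporter probe sets. Among the lower genes were SOX11 (log2 fold change -1.40, adjusted p = 0.00083) and the SoxB1 genes of neural progenitors, SOX3 (-1.29, adjusted p = 0.0034) and SOX2 (-1.55, adjusted p = 0.015). SOX5 fell by 0.78 (adjusted p = 0.0046, called by 2 of its 4 probe sets). The mean Hb-eGFP+ signals of SOX5, 82.8, and SOX2, 92.9, were below the 95th percentile of the other reporter probe sets. The call of SOX2 was lost without Hb-eGFP+ replicate 1 (adjusted p = 0.064) and without Hb-eGFP+ replicate 3 (0.058), and the second SOX11 probe set was not called. SOX4, with 350 in Hb-eGFP+ and 345 in control cells, is an example of a member with little difference.

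**Figure D4:**
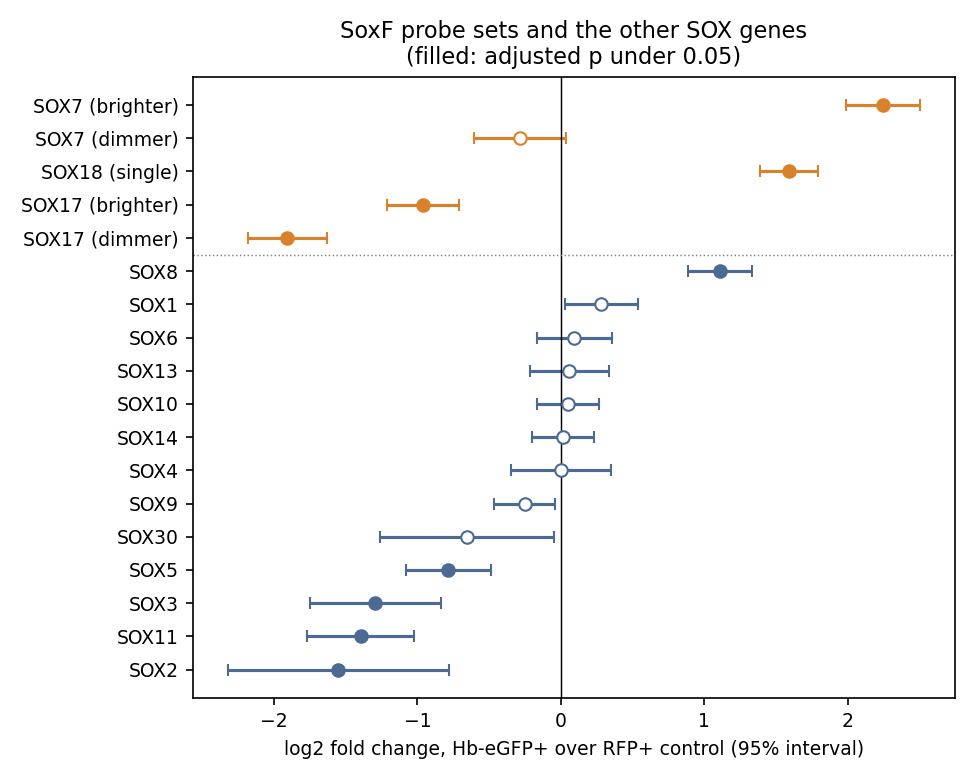
Log2 fold change (Hb-eGFP+ over RFP+ control) with its 95% interval for the 5 SoxF probe sets (orange) and the 13 other measured SOX genes (blue), filled where the adjusted p was under 0.05. SOX8 is the only other SOX gene called higher, and SOX5, SOX3, SOX11 and SOX2 are called lower.

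Factors known to act with or upstream of SoxF genes in blood and endothelium were mostly higher where SOX7 and SOX18 were. Of 13 regulators looked for, 11 were measured, 7 rose and none fell in limma, also at an unadjusted p under 0.05 (median log2 fold change 0.69). Over all 13009 genes, 9.22% were called higher and 10.7% lower, which is the background for this list and those below. Among the genes that rose, ELF1 and ETS1 were each called by 1 of 6 probe sets and RUNX1 by 1 of 2. The RUNX1 means, 85.7 in Hb-eGFP+ and 36.6 in control cells, were below the 95th percentile of the other reporter probe sets. TAL1, a bHLH factor required for blood, led by adjusted p (log2 fold change 1.93, adjusted p = 2.7e-06, called by 2 of its 4 probe sets), followed by the ETS factor FLI1, at 5882 ± 241 in Hb-eGFP+ cells against 2630 ± 105 in control cells (1.16, adjusted p = 2.8e-05), and the homeobox gene HHEX (1.10, adjusted p = 5.1e-05). GATA2, a zinc finger factor of blood progenitors, read 74.2 against 64.9 and was not called (adjusted p = 0.52). ETV2, an ETS factor upstream of endothelium in the mouse, had no probe set under this name. LMO2, TAL1, FLI1 and HHEX, like the SoxF genes, had been listed by the study. So had FLT1, CDH5, FLT4, CD34, CXCR4, OTX2, MSGN1 and CTSG, which are named below. The directions of all these genes are therefore not independent evidence.

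Genes that SoxF proteins are known to regulate in vessels, mainly from work in the mouse and zebrafish, were divided. Of 15 looked for, 14 were measured, of which 6 were higher, 1 was lower and 7 were not called (median 0.20). The higher ones included FLT1, a receptor for VEGF (log2 fold change 1.58, adjusted p = 1.5e-05), and CDH5, which encodes VE-cadherin (1.45, adjusted p = 1.8e-05). They also included FLT4, a receptor gene that the study lists for blood islands and endothelial cells (1.48, adjusted p = 0.00020), and the tight junction gene CLDN5 (1.23, adjusted p = 0.00023). The lower one was EFNB2, an arterial ligand (-0.84, adjusted p = 0.00021), whose signals of 29.3 in Hb-eGFP+ and 52.5 in control cells were below the 95th percentile of the other reporter probe sets. The Notch ligand gene DLL4, at 142 against 122 (adjusted p = 0.065), was not called. The lymphatic regulator gene PROX1, dim at 58.3 against 58.0 (adjusted p = 0.97), was not called either. NOTCH1 stood at 1020 in Hb-eGFP+ and 1010 in control cells. The FLT1 and FLT4 calls hold for 2 of 3 and 1 of 5 probe sets. Those of KDR and TEK, also counted as higher, hold for 1 of 5 and 1 of 2.

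Genes for proteins that pair with SoxF factors were not called higher where SOX7 and SOX18 were. Of 10 partners looked for, 8 were measured, none rose in limma (1, RBPJ, at an unadjusted p under 0.05) and 3 fell (median -0.08). The nuclear receptor gene NR2F2, whose protein acts with SOX18 in lymphatic specification in the mouse, fell to 56.6 ± 3.0 in Hb-eGFP+ cells, against 103 ± 9.21 in control cells (log2 fold change -0.87, adjusted p = 0.00042). SMAD1, a BMP effector, fell by 0.52 (adjusted p = 0.0032) and TCF7L1, a nuclear effector of Wnt signalling, by 0.47 (adjusted p = 0.0085). The Hb-eGFP+ signal of TCF7L1, 98.7, was also below the 95th percentile of the other reporters. MEF2C, a MADS-box partner of SOX18, was dim in both populations (77.8 against 66.3, adjusted p = 0.16). CTNNB1, which encodes beta-catenin, a protein that SOX17 and SOX7 can bind, was bright in both at 9155 against 9924 (adjusted p = 0.22).

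**Figure D5:**
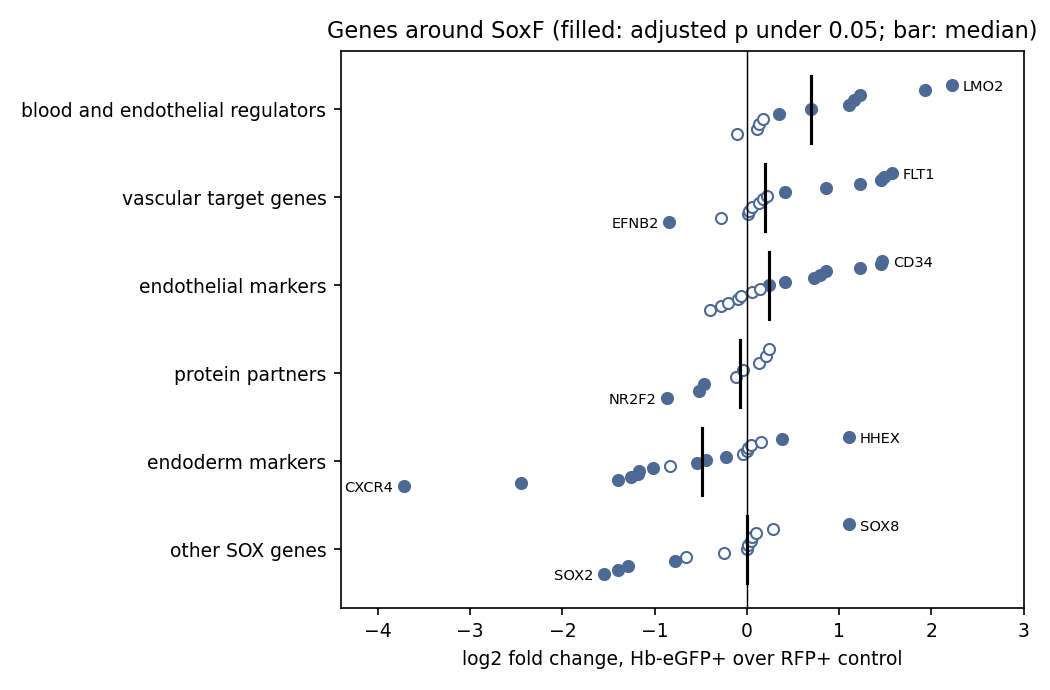
Log2 fold changes (Hb-eGFP+ over RFP+ control) of the measured genes in 6 lists, 1 point per gene, filled where the adjusted p was under 0.05, with the list's median as a bar and the called genes at either end named. The regulators have the highest median, 0.69, and the endoderm markers the lowest, -0.49.

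Many, but not all, of the measured markers of endothelium and endoderm, tissues in which the members are known, were called. Of 17 endothelial markers looked for, 15 were measured, 8 were higher and none was lower in limma, also at an unadjusted p under 0.05 (median 0.24), with CDH5 as above, CD34 at 550 ± 52.9 in Hb-eGFP+ cells against 199 ± 20.8 in control cells (log2 fold change 1.47, adjusted p = 7.0e-05) and CLDN5. The CD34 call holds for 1 of 2 probe sets, the other reading 203 against 193. KDR was called by 1 of 5 probe sets and TEK by 1 of 2. EMCN, also counted as higher, was dim at 31.3 against 26.5 and lost its call in some alternatives. Its signals were below the median of the other reporter probe sets. This list shares CDH5, KDR, TEK, TIE1, ESAM and CLDN5 with the target genes. Summed over the list, Hb-eGFP+ arrays read 11764 to 12828 and control arrays 6347 to 6975. These sums are set mostly by the brightest genes, CDH5 (5680 against 2076) and KDR (3060 against 2305), and do not show a rise across the list. Of 22 endoderm markers looked for beside SOX17, 18 were measured, 10 were lower and 2 higher (median -0.49). Without single arrays, 7 to 10 were lower. Of the lower genes, HNF4A (3 probe sets) and GATA5 (2) had no probe set called in the fit over all probe sets. TF, counted as not called by its brightest probe set (3633 against 3616), had 2 of its 4 probe sets called lower in that fit (log2 fold changes -1.76 and -1.82). CXCR4 (log2 fold change -3.72, adjusted p = 5.1e-06), CER1 (-1.40, adjusted p = 1.1e-05) and the apolipoprotein gene APOA1 (-1.26, adjusted p = 4.0e-05) fell, while HHEX, also a gene of blood precursors, rose. The Hb-eGFP+ signal of CXCR4, 34.6, was about the median of the other reporter probe sets, which makes its fold inexact. RBP4, the other higher gene, was no longer called without Hb-eGFP+ replicate 3 (adjusted p = 0.055), which left 1 higher. FOXA2, a forkhead factor of endoderm and axial mesoderm, was dim, at 37.2 against 66.3 (adjusted p = 0.050). Summed endoderm intensities were 23702 to 24638 for Hb-eGFP+ arrays and 26463 to 27106 for control arrays. They include the bright HHEX, and without it, a sum added after the values were seen, they were 14853 to 15145 and 22272 to 22712. The part that endoderm cells among the control cells have in the SOX17 difference was not tested.

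Markers of 5 other tissues of the gastrula were read in the same way. Of 9 measured blood markers, 3 were higher and 1 lower, including SPI1 (log2 fold change 1.34, adjusted p = 1.2e-05) and CEBPA (-0.41, adjusted p = 0.024). In the fit over all probe sets, neither of the 2 CEBPA probe sets was called. TFRC and HBA1, also higher, were called by 1 of 2 and 1 of 3. Of the other tissues' markers, 8 of 12 neuroectoderm, 7 of 10 paraxial mesoderm, 4 of 10 non-neural ectoderm and 6 of 11 primitive streak markers were lower and none was higher in limma (at an unadjusted p under 0.05, 1 of the non-neural ectoderm, TP63, was higher). The neuroectoderm list holds SOX2 and SOX3. OTX2, a head neural gene (-4.10), and MSGN1, a presomitic gene (-3.87), fell more than SOX17 did by either of its probe sets. Their summed intensities did not overlap either, at 3484 to 3795 in Hb-eGFP+ and 15113 to 15699 in control arrays for neuroectoderm, and 1787 to 1959 against 10415 to 11045 for paraxial mesoderm.

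Genes with a pattern like each member were sought by the root mean square distance of log2 intensities over the 6 arrays, each gene centred on its mean, among 9496 genes brighter than the median probe set. This measure is set mostly by the difference between the groups. Nearest to SOX7 were SLC32A1, a vesicular transporter of GABA (distance 0.12), CXorf36 (0.16), GAD2, a GABA-synthesizing enzyme (0.18), the protease gene CTSG (0.18) and TAL1 (0.20). SOX18 had closer neighbours, with CALD1, an actin-binding protein gene (0.035), the ferroxidase gene CP (0.072), IGSF11 (0.079), CDH5 (0.085) and DAPP1 (0.089). CALD1 stood at 2173 in Hb-eGFP+ and 743 in control cells, a log2 fold change of 1.55 beside the 1.59 of SOX18. For SOX17 they were FSTL4 (0.062), RGS20 (0.063), ZNF608 (0.064), TSPAN4 (0.068) and ANXA8L1 (0.076), with log2 fold changes of -1.03 to -0.89.

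Of the 12 genes read beside the SoxF genes on the chromosomes, 10 were not called, 1 was higher and 1 lower. These counts are near the shares over all genes, of which 9.22% were called higher and 10.7% lower. For each member, the 2 nearest protein-coding genes with a probe set on either side were read, with the gene order of the assembly GRCg7b. Next to SOX7, PINX1 was at 673 in Hb-eGFP+ and 661 in control cells (log2 fold change 0.02, adjusted p = 0.90), and PRSS55, MSRA and XKR6 were not called either. Beside SOX17, MRPL15 (0.11, adjusted p = 0.35), LYPLA1 (-0.04), RP1 (-0.18) and XKR4 (0.13) were not called. Next to SOX18, the transcription elongation factor gene TCEA2 was slightly lower (-0.28, adjusted p = 0.040) and the G-protein regulator gene RGS19 slightly higher (0.25, adjusted p = 0.026), while PRPF6 and SAMD10 were not called. Both calls were lost with Hb-eGFP+ replicate 1 left out (adjusted p = 0.12 for TCEA2 and 0.065 for RGS19), and likewise Hb-eGFP+ replicate 3 (0.13 and 0.088), RFP+ control replicate 1 (0.087 and 0.080) or RFP+ control replicate 2 (0.065 and 0.076). The TCEA2 call was also lost without RFP+ control replicate 3 (0.099), and the RGS19 call without Hb-eGFP+ replicate 2 (0.055).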

How the data were processed

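RNA from 3 Hb-eGFP+ and 3 RFP+ control samples was hybridized to 1-colour Affymetrix Chicken Genome Arrays and read with GCOS 1.4. The authors normalized the 6 arrays in dChip and deposited 1 Perfect Match-only index per probe set, an intensity on a linear scale; array normalization method and background handling are not given in the sources used here. Precision is limited by the number of arrays.

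Values were floored at 1 and taken to log2. Groups were compared with limma 3.58.1 in R 4.3.3 (unpaired, two-sided, Benjamini-Hochberg, threshold 0.05), over 38439 probe sets for the SoxF probe sets and over 13009 genes, each by its brightest probe set, for other genes. The methods' rule, a lower 90% bound of the ratio of group means above 1.7, was computed from the spread between arrays. On data simulated for this comparison with 38439 probe sets, limma called 77.6% of 2-fold and 93.9% of 4-fold changes in probe sets above the median. It called 47.8% of 1.5-fold changes. Far fewer probe sets were changed in the simulation than were called in the data, so these shares are only a rough guide. A gene that was not called may still differ within its own 95% interval, such as -0.21 to 0.25 on the log2 scale for NOTCH1.

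Names came from the platform annotation, by gene ID, and the RefSeq table of GRCg7b (26853 of 27168 singly named probe sets matched). Named by rule were the SoxF probe sets, the 3 smallest adjusted p per list with the first of each direction, up to 5 other SOX genes, the 5 nearest genes per member, and GATA2, ETV2, FLI1 and HHEX; others were chosen after their values were seen. Members and lists were chosen with earlier results of these data known. Alternatives were quantile normalization, median centring, an offset of 50, removal of dim probe sets, a variance trend with robust estimates, a replicate block, each array left out, a 95% interval for the bound and the mean over probe sets.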

Additional observations from a re-analysis of the deposited data

How the results depend on the processing

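For the 5 SoxF probe sets, direction and limma call were kept under all 12 alternatives that gave a value. Leaving out single arrays, the log2 fold change was 2.15 to 2.32 for SOX7 (brighter), -0.41 to -0.20 for SOX7 (dimmer), 1.54 to 1.62 for SOX18, and -1.04 to -0.91 and -1.99 to -1.80 for the brighter and dimmer SOX17 probe sets. Only the lower bound of the brighter SOX17 probe set crossed 1.7, with 1.68 at a 95% interval and 1.60 to 1.88 without single arrays. Removing dim probe sets left no vascular target lower (0, from EFNB2 being removed) and 1 endoderm marker higher. With the mean over probe sets, 4 vascular targets were higher in place of 6. Without single arrays, 1 to 2 endoderm markers were higher and 7 to 10 lower.

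The counts over all probe sets were 1545 higher and 1941 lower. They were 811 to 1296 and 1102 to 1721 without single arrays, with the lowest counts without Hb-eGFP+ replicate 3 (811 and 1102), then Hb-eGFP+ replicate 1 (856 and 1187) and, for the higher count, RFP+ control replicate 1 (962). With the replicate number as a block they were 900 and 1248. The correlations of same-numbered samples (-0.12, -0.05 and 0.10) were not all above 0.1 and no source ties a number to a pool, so the numbers were not taken as pairs, although a shared pool cannot be told from these values. The block kept each SoxF call. Of 52 genes checked in this way, 43 kept their call in every alternative that gave a value. The other 9 (SOX2, ETS1, HNF4A, GATA5, PRDM1, RBP4, EMCN, TCEA2 and RGS19) lost it in at least 1 alternative. Some called genes named above, such as OTX2, MSGN1 and CEBPA, were not among those checked. The causes were not tested. Dim signals limit the SOX7 (dimmer), EFNB2, CXCR4, NR2F2, GATA2, PROX1 and control SOX18 values, among others.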
